A study of Mus musculus with 9 samples.

Results

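The genes of glycolysis, lactate handling and glucose transport were examined in retinas of Balb/c mice that had been light damaged or not. They comprise 37 gene names, drawn up as a list of glycolytic enzymes, PFKFB and PDK regulators, pyruvate dehydrogenase and mitochondrial pyruvate carrier subunits, and glucose and lactate transporters. Rows of the gene count table were taken by name, which gave 38 of its 55414 rows because Aldoa stands in 2 rows with different identifiers. After a filter on low counts 37 of the 38 rows were tested among 17272 in all. Pdk4, which had 3 to 9 counts in a library, was left out by that filter.

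The study has 3 groups of 3 RNA libraries of whole retina: light damage with A74, light damage, and control. All are of Balb/c mice, an albino strain in which strong light makes photoreceptors degenerate. The labels of the first group add only the name A74 to those of the light damage group, and the series is titled for P2RX7, a channel opened by ATP, and its inhibition. Age, the dose and vehicle of A74, the length of the light exposure and whether each library is 1 animal were not found in the labels, so every p-value reflects the spread of these libraries, which may in part be technical.

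Photoreceptors convert most of the glucose they take up to lactate even when oxygen is present, a habit called aerobic glycolysis. Glucose reaches them from the choroid through the pigment epithelium by the transporter GLUT1, and the lactate they release leaves through monocarboxylate transporters, which need the chaperone basigin to reach the membrane. Müller glia and the pigment epithelium are held to use part of that lactate. Isozymes are divided between cell types: hexokinase 2 is enriched in photoreceptors, and lactate dehydrogenase has a subunit A that favours lactate formation and a subunit B that favours its use.

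Promoter sequence is shown for 3 members to set beside their counts, the pair of lactate dehydrogenase genes, which were called in opposite directions after light damage, and Slc16a1, which was called both after light damage and with A74. Each line gives the 200 bases before a transcription start of the gene, 5′ to 3′, from RefSeq on GRCm38.p6, a reference that is not of the Balb/c strain and not of the build GRCm39 named for the counts. Capitals mark ACGTG and GCGTG, the core letters bound by hypoxia-inducible factors, read on both strands, so that a run of CACGTG holds 2 overlapping matches and CACGT or CACGC is a match on the other strand. The stretches are chr6:142507958-142508157 on the minus strand for Ldhb, chr7:46845604-46845803 on the plus strand for Ldha and chr3:104638464-104638663 on the plus strand for Slc16a1.
Ldhb: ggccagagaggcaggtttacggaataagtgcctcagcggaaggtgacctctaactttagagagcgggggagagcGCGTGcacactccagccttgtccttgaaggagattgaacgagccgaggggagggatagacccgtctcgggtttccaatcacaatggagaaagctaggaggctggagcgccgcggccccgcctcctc
Ldha: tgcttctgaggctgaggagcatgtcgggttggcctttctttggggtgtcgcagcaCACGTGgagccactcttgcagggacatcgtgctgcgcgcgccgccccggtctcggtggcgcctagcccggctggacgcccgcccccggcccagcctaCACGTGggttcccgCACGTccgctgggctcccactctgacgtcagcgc
Slc16a1: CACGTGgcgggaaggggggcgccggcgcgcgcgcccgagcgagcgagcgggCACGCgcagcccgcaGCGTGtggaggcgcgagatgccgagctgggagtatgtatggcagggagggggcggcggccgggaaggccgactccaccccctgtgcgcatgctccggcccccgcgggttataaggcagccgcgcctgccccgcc
Ldhb held 1 match in its stretch, Ldha 5 and Slc16a1 4. A second Ldha start in the same table had 1 match in its window and is not shown. Of the 37 members 34 had a promoter window in the RefSeq table, and at least 1 match lay within 250 bases before a start in 29 of the 34 genes (85.3%), against 41.5% of the 27025 genes with a window there. Members had more windows per gene than other genes did, and counted by window the shares were 72.2% of 54 and 38.6% of 32851. A match is a run of letters and not a measured binding site. Both core words hold the letters CG, and the members were not set beside genes of like CG content or like level. TAATCC, the core letters of the photoreceptor factor CRX, was found in 5 of the 34 genes (14.7%), against 7.21% of all genes, and in 9.26% of member windows, against 6.25% of all windows.

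Libraries held 14788000 to 18740400 counts, rounded to the nearest 100. Values are CPM (counts scaled to the same library total) after TMM scaling, and a row was called at an adjusted p under 0.05 in the quasi-likelihood test of edgeR, where p was adjusted by Benjamini-Hochberg over the 17272 rows. CPM is not divided by transcript length, so levels are compared between libraries and not between genes. Libraries of a group were not alike in other respects. The 4 Y-linked genes Ddx3y, Kdm5d, Eif2s3y and Uty had 4249 to 5832 counts in replicates 1 and 2 of light damage and of control and 0 in the other 5 libraries, among them all A74 libraries. Xist, the RNA of the inactive X chromosome, had 17227 to 22253 counts in the 3 A74 libraries and control replicate 3 and 1 to 7 in the other 5. Light damage replicate 3 therefore had neither Y-linked counts nor more than 1 Xist count, and no other library was like it in this respect. Markers of anterior eye and connective tissue summed to 71.4 to 158 CPM in those 4 libraries and replicate 1 of the A74 group, whereas the other 4 libraries had 11.2 to 17.0 CPM. Pigment epithelium markers summed to 52.1 to 90.7 CPM with A74, 107 to 130 CPM after light damage and 51.8 to 222 CPM in control. The part of pigment epithelium RNA in the members' values was not tested. Markers of retinal cells were present in every group: 12 rod markers summed to 52929 to 56361 CPM with A74, 30835 to 45675 CPM after light damage and 55009 to 60295 CPM in control, and none was at 0.

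The first comparison set light damage against control. Ldhb, the enolase gene Eno1, the basigin gene Bsg and the aldolase gene Aldoc rose, while Pfkfb2, Pfkp, Slc16a1, Slc2a1 and Ldha fell, all by less than 2-fold. In all 7 of the 37 rows tested rose (18.9%) and 8 fell (21.6%), beside 13.0% and 12.8% of all rows tested (25.8% in either direction). The median log2 fold change of the 37 rows was -0.05, against 0.01 over all rows, and no member reached a log2 fold change of 1 in either direction, which 4.46% of all rows did. The members thus moved in both directions, and which member of an isozyme family moved differed from step to step. The rows tested in all were not matched to the members in count level, so their shares are a rough background.

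**Figure D1:**
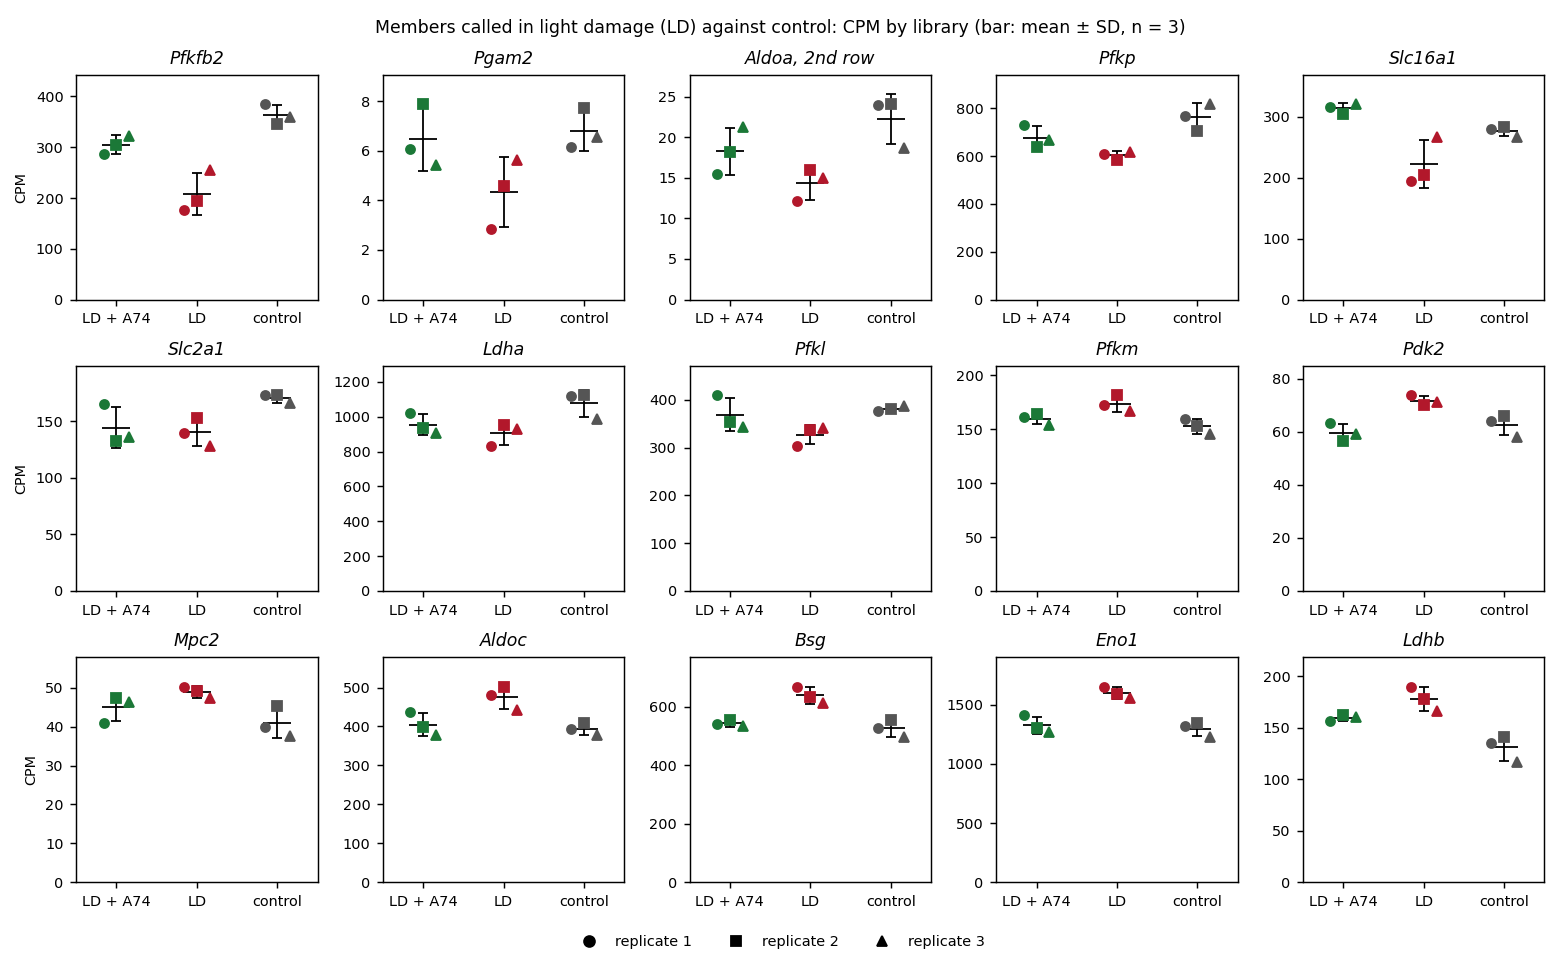
CPM (y axis, from 0) of the 15 rows called in light damage against control, in light damage with A74 (LD + A74), light damage (LD) and control, ordered from the largest fall to the largest rise. Symbols are single libraries and bars the mean ± SD of 3; all 3 light damage libraries of Ldhb, at 166 to 189.9 CPM, lie above the control libraries, at 116 to 141 CPM.

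**Figure D2:**
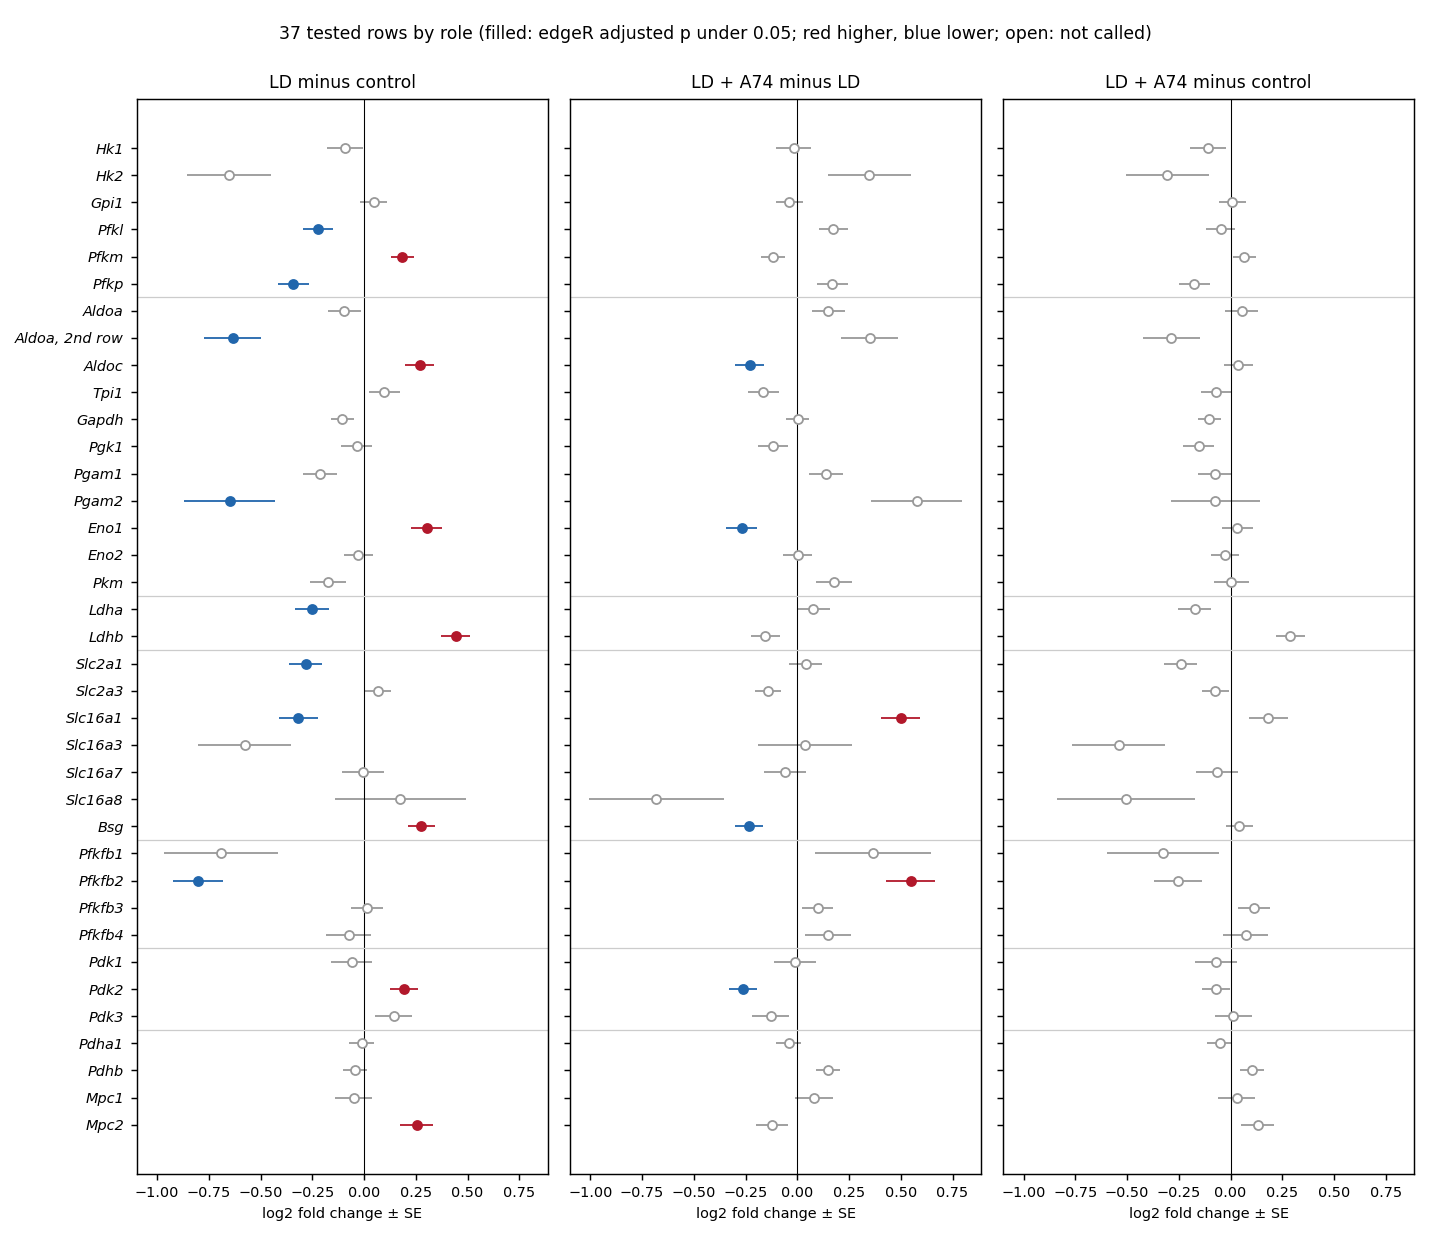
Log2 fold change with its SE (x axis) of the 37 tested rows in 3 comparisons, ordered by role in the pathway and separated by grey lines. Filled points were called by edgeR at adjusted p under 0.05, with 7 higher and 8 lower in light damage against control, 2 higher and 4 lower with A74 against light damage and 0 with A74 against control.

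The first steps of glycolysis phosphorylate glucose and commit it to the pathway. Hk2 had 256, 381 and 370.3 CPM in the light damage libraries, against 530.4, 530.0 and 523 CPM in control. The groups did not overlap, with light damage replicate 1 lowest, but the row was not called (log2 fold change -0.65, SE 0.20, edgeR adjusted p = 0.0553). The light damage libraries spread over 69.0 CPM (SD, n = 3) and the control libraries over 4.11 CPM. DESeq2 did call Hk2 (log2 fold change -0.66, adjusted p = 0.0125), as did edgeR without the A74 libraries (adjusted p = 0.0206). Hk1, the hexokinase found in most tissues, had a difference of -0.09 on the log2 scale (edgeR adjusted p = 0.476), so that Hk2 made up 26.7 to 30.9% of the counts of the pair after light damage, against 36.7 to 38.6% in control. Gpi1, which isomerises the product, stood at 0.05 (edgeR adjusted p = 0.651).

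Phosphofructokinase, the main control point, is built of 3 kinds of subunit that moved apart. Pfkp, the platelet-type subunit, had 609, 583 and 618 CPM after light damage, against 770.1, 707 and 819 CPM in control. Every light damage library lay below every control library (log2 fold change -0.34, SE 0.07, edgeR adjusted p = 0.00314). Pfkl, the liver-type subunit, fell to 304, 336 and 341 CPM after light damage, against 376, 381 and 388 CPM in control (log2 fold change -0.22, SE 0.07, edgeR adjusted p = 0.0306). Pfkm, the muscle-type subunit, rose to 174 ± 7.35 CPM after light damage, against 153 ± 7.21 CPM in control (SD, n = 3, edgeR adjusted p = 0.0244). Pfkm thereby made up 14.8 to 16.5% of the counts of the 3 subunits after light damage, against 10.7 to 12.4% in control.

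Pfkfb2 showed the lowest log2 fold change of the tested members. Its product is a bifunctional enzyme that makes and degrades the sugar bisphosphate by which phosphofructokinase is switched on. It had 175, 195 and 255 CPM in the light damage libraries, against 385, 345 and 359 CPM in control. The groups were far apart, with light damage replicate 3 nearest to control (log2 fold change -0.80, SE 0.12, edgeR adjusted p = 0.00105). The other 3 PFKFB genes were not called: Pfkfb3, the form induced by hypoxia and growth signals, had a difference of 0.01 on the log2 scale (edgeR adjusted p = 0.919), Pfkfb4 -0.08, and Pfkfb1 -0.69 at only 21 to 43 counts in the libraries of both groups (edgeR adjusted p = 0.0733).

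In the steps from aldolase on, Aldoc and Eno1 rose, while the most counted genes did not pass the test. Aldoc, the brain-type aldolase gene, had 479.8, 502 and 442 CPM after light damage, against 394, 409.7 and 379 CPM in control, with no overlap (log2 fold change 0.27, SE 0.07, edgeR adjusted p = 0.0105). Eno1, the widely expressed enolase gene, had 1653, 1591 and 1555 CPM after light damage, against 1322, 1342 and 1226 CPM in control (log2 fold change 0.30, SE 0.07, edgeR adjusted p = 0.00708). Eno1b, a near-identical gene that is no member, rose by 0.43 (edgeR adjusted p = 0.000323), and reads may be split between the pair, whose summed counts rose by 0.33 (edgeR adjusted p = 0.00521, a fit added after the data were seen). Eno2, the neuron-type enolase gene, had a difference of -0.03 on the log2 scale (edgeR adjusted p = 0.815).

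Pkm, which encodes the pyruvate kinase of most tissues, had 1873, 2204 and 2128 CPM after light damage, against 2359, 2379 and 2264 CPM in control. All light damage libraries were lower, but the row was not called (log2 fold change -0.17, SE 0.09, edgeR adjusted p = 0.148), though DESeq2 called it (adjusted p = 0.0494). The main Aldoa row had -0.10, Tpi1 0.10, Pgk1 -0.04 and Gapdh -0.11 on the log2 scale, with edgeR adjusted p between 0.172 and 0.769. Pgam1, the phosphoglycerate mutase gene of most tissues, had -0.21 (edgeR adjusted p = 0.0653), and was called by DESeq2 (adjusted p = 0.0313) and by edgeR without control replicate 3, light damage replicate 3 or A74 replicate 1 (adjusted p from 0.0241 to 0.0478). Pgam2, the muscle form, was at 47 to 88 counts in the light damage libraries and 87 to 128 in control, and fell by 0.65 (edgeR adjusted p = 0.0396). The second Aldoa row, with 201 to 307 counts after light damage and 278 to 400 in control, fell by 0.64 (edgeR adjusted p = 0.0037). Its reads may be shared with the main row, which held 30665 to 40309 counts in a library and was not called. Gapdh has processed copies elsewhere in the mouse genome. The rows named as such copies held at most 14 counts in a library, and copies without a telling name were not checked. The Gapdh row itself held 1316 to 1729 counts in a library, beside 10292 to 16597 for Tpi1. Whether Gapdh reads were lost or assigned to other rows was not tested, so its difference is uncertain.

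The lactate dehydrogenase subunits moved in opposite directions. Ldhb had 189.9, 178 and 166 CPM after light damage, against 136, 141 and 116 CPM in control, and no light damage library was as low as a control one (log2 fold change 0.44, SE 0.07, edgeR adjusted p = 0.000306). Ldha had 831, 955 and 929 CPM after light damage, against 1121, 1123 and 988 CPM in control (log2 fold change -0.25, SE 0.08, edgeR adjusted p = 0.0301). Ldhb therefore took 18.6, 15.7 and 15.2% of the counts of the pair after light damage, against 10.8, 11.1 and 10.5% in control. This share needs no scaling between libraries, and the groups did not overlap (exact two-sided permutation test, p = 0.1, the smallest p that 3 libraries against 3 allow).

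Among transporters, Slc2a1, the gene of GLUT1, had 139.8, 153 and 128 CPM after light damage, against 173, 173 and 166 CPM in control (log2 fold change -0.28, SE 0.08, edgeR adjusted p = 0.0181). Slc2a3, the gene of the neuronal glucose transporter GLUT3, had a difference of 0.07 on the log2 scale (edgeR adjusted p = 0.474). Slc16a1 encodes the monocarboxylate transporter MCT1, and had 194, 205 and 266 CPM after light damage, against 279.6, 283 and 267 CPM in control. Light damage replicates 1 and 2 were low and replicate 3 was within 1 CPM of the lowest control library (log2 fold change -0.32, SE 0.09, edgeR adjusted p = 0.0252). Bsg, whose product carries MCT1 and MCT4 to the membrane, rose to 669, 635 and 613 CPM after light damage, against 528, 556 and 498 CPM in control (log2 fold change 0.28, SE 0.07, edgeR adjusted p = 0.00586). The transporter and its chaperone gene were thus called in opposite directions.

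Slc16a3, the gene of the lactate exporter MCT4, had 35.6, 47.6 and 41.3 CPM after light damage, against 62.0, 63.9 and 59.9 CPM in control. The groups were separate, but the row was not called in the fit of all 9 libraries (log2 fold change -0.58, SE 0.22, edgeR adjusted p = 0.111). In a fit of those 6 libraries alone it was called (log2 fold change -0.57, edgeR adjusted p = 0.00175), while Slc16a1 (edgeR adjusted p = 0.0815) and Pgam2 (edgeR adjusted p = 0.0604) lost their calls in that fit. Slc16a7 (MCT2), found in neurons, had a difference of -0.01 on the log2 scale (edgeR adjusted p = 0.979). Slc16a8, the pigment epithelium form MCT3, was at 23 to 66 counts in these 6 libraries and had 0.18 (edgeR adjusted p = 0.735).

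At the entry of pyruvate into mitochondria Pdk2 and Mpc2 rose, 2 of 7 tested members, where 13.0% of all rows were called higher. Pdk2, a kinase gene whose product switches pyruvate dehydrogenase off, had 73.8, 70.1 and 71.2 CPM after light damage, against 64.0, 65.9 and 58.2 CPM in control (log2 fold change 0.19, SE 0.07, edgeR adjusted p = 0.0402). DESeq2 did not call Pdk2 (adjusted p = 0.0689). Mpc2, a subunit gene of the mitochondrial pyruvate carrier, rose to 48.9 ± 1.48 CPM after light damage, against 41.0 ± 3.98 CPM in control (SD, n = 3, edgeR adjusted p = 0.0265). Its partner Mpc1 had a difference of -0.05 on the log2 scale (edgeR adjusted p = 0.728), with the limit that a processed copy, Mpc1-ps, held 208 to 345 counts in a library. Pdk1, Pdk3, Pdha1 and Pdhb, where the Pdh genes encode subunits of pyruvate dehydrogenase itself, were not called (edgeR adjusted p from 0.269 to 0.917).

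These values are of whole retina, in which fewer cells of a type and less RNA per cell cannot be told apart. Rod markers were lower after light damage in 9 of 12 cases. Müller glia markers rose in 9 of 10 cases, with sums of 6649 to 7335 CPM after light damage and 5215 to 5973 CPM in control, and microglia and macrophage markers in 12 of 14, with sums of 239 to 404 CPM after light damage and 83.1 to 92.7 CPM in control. Astrocyte markers rose in 3 of 5 cases, with sums of 106 to 205 CPM after light damage and 56.9 to 61.7 CPM in control. Endothelial and pericyte markers rose in 2 of 10, with sums of 576 to 705 CPM after light damage and 419 to 457 CPM in control. Markers of ganglion cells rose in 7 of 10 cases, of bipolar cells in 4 of 10, of amacrine and horizontal cells in 3 of 10 and of cones in 3 of 9, where the median log2 fold change of the cone list was -0.06. None of the markers of these lists was at 0 in a group. The part of these shifts in the members' changes was not tested.

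Of the 15 calls 6 stood with any 1 of the 9 libraries left out, those of Ldhb, Pfkfb2, Pfkp, Bsg, Eno1 and the second Aldoa row. Aldoc lost its call when replicate 2 of light damage was left out (edgeR adjusted p = 0.0577). Ldha was not called without control replicate 1 or 2, light damage replicate 1 or 2 or A74 replicate 2 (edgeR adjusted p from 0.0523 to 0.121). Slc2a1 was lost without control replicate 1 or 2 or light damage replicate 1 or 3 (edgeR adjusted p from 0.0514 to 0.0666). Pfkm was lost without control replicate 2 or 3 or light damage replicate 2 (edgeR adjusted p from 0.0638 to 0.106). Mpc2 and Pdk2 were lost without control replicate 1 or 3 or light damage replicate 1 or 2 (edgeR adjusted p from 0.0656 to 0.116 and from 0.058 to 0.163). Pfkl, Pgam2 and Slc16a1 were lost without any 1 of the 3 control libraries and without light damage replicate 1 or 2, and Pfkl also without A74 replicate 2 and Slc16a1 without A74 replicate 3 (edgeR adjusted p from 0.0514 to 0.169 over the 3 genes). Without light damage replicate 1 the log2 fold change of Pgam2 was -0.41. All 15 kept their sign in each of these fits, which followed from the lack of overlap between light damage and control libraries in these rows.

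In all 15 rows every light damage library lay on the same side of every control library. The signs within a subset of libraries were therefore fixed in advance and are no check on Y-linked counts or anterior tissue. The 2 light damage and 2 control libraries with Y-linked counts were also those with more anterior tissue RNA. A fit was made of those control and light damage libraries and all A74 libraries, which share in the estimate of spread. In it Slc2a1 (edgeR adjusted p = 0.0649), Pdk2 (edgeR adjusted p = 0.15) and Mpc2 (edgeR adjusted p = 0.0716) lost their calls, while Slc16a1 had a log2 fold change of -0.49. Both replicates 3 lacked Y-linked counts but differed in Xist, with 1 count in light damage and 22253 in control. Between these replicates 3 the mean log2 CPM of Slc16a1 differed by only -0.001, against -0.49 between the libraries with Y-linked counts. That of Pfkfb2 differed by -0.50 in replicates 3 and by -0.98 in the others, and that of Ldhb by 0.52 and 0.41. Light damage replicate 3 also had the highest rod marker sum of its group, 45675 CPM, against 30835 and 39333 CPM in replicates 1 and 2. Its microglia and macrophage marker sum was the lowest, 239 CPM, against 404 and 327 CPM. The part of these marker differences in the values was not tested.

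The second comparison set light damage with A74 against light damage alone. Slc16a1 and Pfkfb2 were higher with A74, and Eno1, Bsg, Aldoc and Pdk2 were lower. Thus 2 of 37 rows rose (5.41%) and 4 fell (10.8%), beside 9.07% and 9.19% of all rows tested (18.3% in either direction), shares near or below those of all genes. The median log2 fold change of the 37 rows was 0.002, against -0.0003 over all rows. This comparison and the first share the light damage libraries, so a row that is by chance high in those libraries would be called in opposite directions.

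Slc16a1 had 316, 303 and 321 CPM with A74, against 194, 205 and 266 CPM after light damage alone. All A74 libraries lay above all light damage libraries (log2 fold change 0.50, SE 0.09, edgeR adjusted p = 0.00373). Pfkfb2 had 286, 305 and 323 CPM with A74, against 175, 195 and 255 CPM after light damage alone, again without overlap (log2 fold change 0.55, SE 0.12, edgeR adjusted p = 0.0113). The lactate transporter and the phosphofructokinase regulator were the only members called higher with A74 by this test.

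The 4 members that were lower with A74 were separate from light damage in every library. Eno1 had 1409.9, 1301 and 1270.0 CPM with A74, against 1653, 1591 and 1555 CPM after light damage alone (log2 fold change -0.27, SE 0.07, edgeR adjusted p = 0.0196). Bsg had 542, 556 and 533 CPM with A74, against 669, 635 and 613 CPM after light damage alone (log2 fold change -0.23, SE 0.07, edgeR adjusted p = 0.0218). Aldoc had 437, 398 and 379 CPM with A74, against 479.8, 502 and 442 CPM after light damage alone (log2 fold change -0.23, SE 0.07, edgeR adjusted p = 0.0325), and A74 replicate 1 came within 5 CPM of light damage replicate 3. Pdk2 had 63.3, 56.7 and 59.3 CPM with A74, against 73.8, 70.1 and 71.2 CPM after light damage alone (log2 fold change -0.26, SE 0.07, edgeR adjusted p = 0.0116).

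Ldhb, which rose after light damage, was not called in this comparison. It had 157, 162 and 161 CPM with A74, against 189.9, 178 and 166 CPM after light damage alone (log2 fold change -0.16, SE 0.07, edgeR adjusted p = 0.130). Its share in the lactate dehydrogenase counts was 13.3, 14.8 and 15.1% with A74, against 18.6, 15.7 and 15.2% after light damage alone (exact two-sided permutation test, p = 0.1, the smallest possible). Ldha had a difference of 0.08 on the log2 scale (edgeR adjusted p = 0.547) and Slc2a1 one of 0.04 (edgeR adjusted p = 0.768). Pfkp, at 0.17 (edgeR adjusted p = 0.127), and Pkm, at 0.18 (edgeR adjusted p = 0.161), were not called either.

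**Figure D3:**
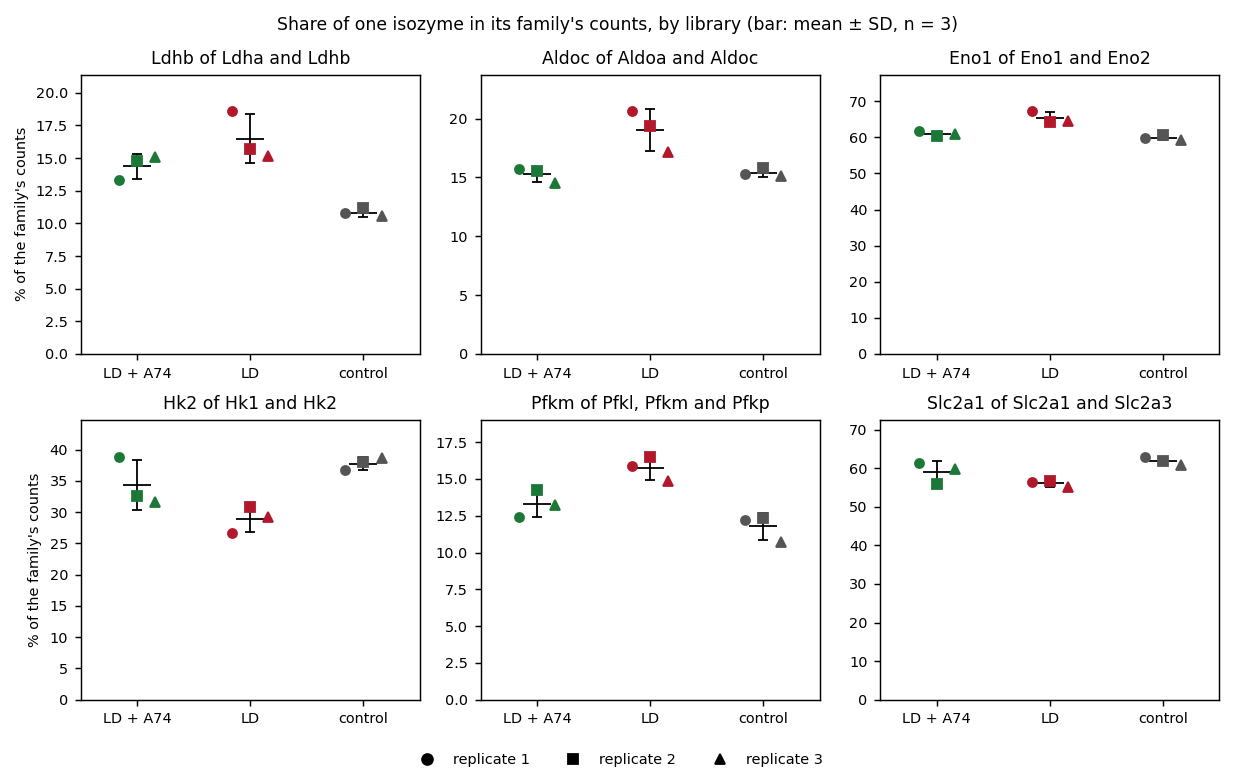
Share of 1 isozyme in the summed counts of its family (y axis, percent, from 0) in each library of light damage with A74 (LD + A74), light damage (LD) and control; bars are the mean ± SD of 3. Ldhb lies at 13.3 to 15.1% with A74, 15.2 to 18.6% after light damage and 10.5 to 11.1% in control, while Aldoc is back at 14.5 to 15.7% with A74, against 15.1 to 15.8% in control.

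The rise of Slc16a1 was the one call of the 6 that stood with any 1 library left out. Eno1 was lost without light damage replicate 2 or A74 replicate 2 or 3 (edgeR adjusted p from 0.0593 to 0.0836), and Bsg without light damage replicate 1 or 2 or A74 replicate 2 or 3 (edgeR adjusted p from 0.0563 to 0.0746). Aldoc was lost without control replicate 1, light damage replicate 1 or 2 or A74 replicate 2 or 3 (edgeR adjusted p from 0.0508 to 0.146). Pdk2 was lost without A74 replicate 2 (edgeR adjusted p = 0.0691) and Pfkfb2 without A74 replicate 3 (edgeR adjusted p = 0.0585). In a fit of these 6 libraries alone Aldoc lost its call (edgeR adjusted p = 0.0573). Without light damage replicate 3, Ldhb (-0.20), Pfkl (0.21) and Pgam2 (0.80) were called (edgeR adjusted p = 0.0383, 0.0468 and 0.0123), and without A74 replicate 1, Pdhb (0.20) and the second Aldoa row (0.46) were (edgeR adjusted p = 0.0353 and 0.0413).

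No A74 library had Y-linked counts, while light damage replicates 1 and 2 did. With the presence of Y-linked counts as a term, added after the data were seen, only Slc16a1 was still called among the 6 (log2 fold change 0.39, edgeR adjusted p = 0.0393), and Pfkfb2 had 0.41 (edgeR adjusted p = 0.0674). Against light damage replicate 3, the one light damage library without Y-linked counts, which unlike the A74 libraries had 1 Xist count, the mean log2 CPM of the A74 libraries differed by 0.23 for Slc16a1, 0.26 for Pfkfb2, -0.23 for Eno1, -0.17 for Bsg, -0.13 for Aldoc and -0.25 for Pdk2. These 6 signs could not differ from those of the whole comparison, since no A74 library overlapped the light damage libraries in these rows. Light damage replicate 3 also had the highest rod marker sum of its group, at 45675 CPM. Rod markers were higher with A74 in 10 of 12 cases, Müller glia markers lower in 9 of 10, with sums of 5227 to 5795 CPM with A74 and 6649 to 7335 CPM after light damage, and microglia markers lower in 13 of 14. The part of these shifts in the members' changes was not tested.

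Light damage with A74 was last compared with control. None of the 37 rows was called by edgeR in the fit of all 9 libraries, and 5 had an unadjusted p under 0.05, in a comparison in which 0.892% of all rows were called (0.591% higher and 0.301% lower). DESeq2 called 1, Ldhb. Ldhb had 157, 162 and 161 CPM with A74, against 136, 141 and 116 CPM in control, so that all A74 libraries were higher (log2 fold change 0.29, SE 0.07, edgeR adjusted p = 0.0614, DESeq2 adjusted p = 0.0208). Some other edgeR fits did call Ldhb, with no count filter (adjusted p = 0.000689), with the 2 groups alone (adjusted p = 0.0148) and without light damage replicate 1 or 3 (adjusted p = 0.0248 and 0.0187). So did edgeR with a term for Y-linked counts (log2 fold change 0.42, adjusted p = 0.0108) or for anterior tissue (adjusted p = 0.0197). Ldhb was not called with other scaling, the replicate block or summed copies, or with any other single library left out. Nor was Ldhb called when control and light damage were cut to their libraries with Y-linked counts. Its share in the lactate dehydrogenase counts was likewise higher in all A74 libraries, at 13.3 to 15.1%, against 10.5 to 11.1% in control (exact two-sided permutation test, p = 0.1, the smallest possible). Against the one control library without Y-linked counts the mean log2 CPM of Ldhb in the A74 libraries was higher by 0.46. Aldoc, Bsg and Eno1 had log2 fold changes of 0.04, 0.04 and 0.03 with A74 against control. Their nominal 95% intervals, which are too narrow for so few libraries, were -0.10 to 0.18 for Aldoc, -0.09 to 0.17 for Bsg and -0.11 to 0.18 for Eno1. Pfkfb2 had -0.25 (SE 0.12, edgeR adjusted p = 0.331) and Slc16a1 0.18 (SE 0.09, edgeR adjusted p = 0.374), and in both the libraries of the 2 groups did not overlap. With the 2 groups alone edgeR called both (adjusted p = 0.0256 and 0.0494), and without light damage replicate 3 it called Pfkfb2 (adjusted p = 0.0394).

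In 3 members 1 of the A74 libraries stood apart. Hk2 had 543 CPM in A74 replicate 1 and 384 and 355 CPM in replicates 2 and 3, against 523 to 530.4 CPM in control. Slc16a3 had 58.9, 34.9 and 34.1 CPM with A74, against 62.0, 63.9 and 59.9 CPM in control. Slc2a1 had 165, 132 and 136 CPM with A74, against 173, 173 and 166 CPM in control. In each, A74 replicate 1 lay close to the control libraries, and replicates 2 and 3 lay within or below the range of the light damage libraries, except that Hk2 in replicate 2 was slightly above it. The 12 lens markers, of which Lim2 was at 0 in every group, reached 824 CPM together in A74 replicate 1, and no other library had more than 109 CPM. The rod markers of this library, at 56361 CPM, were the highest of the 3 A74 libraries. The part of lens RNA in these values was not tested.

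**Figure D4:**
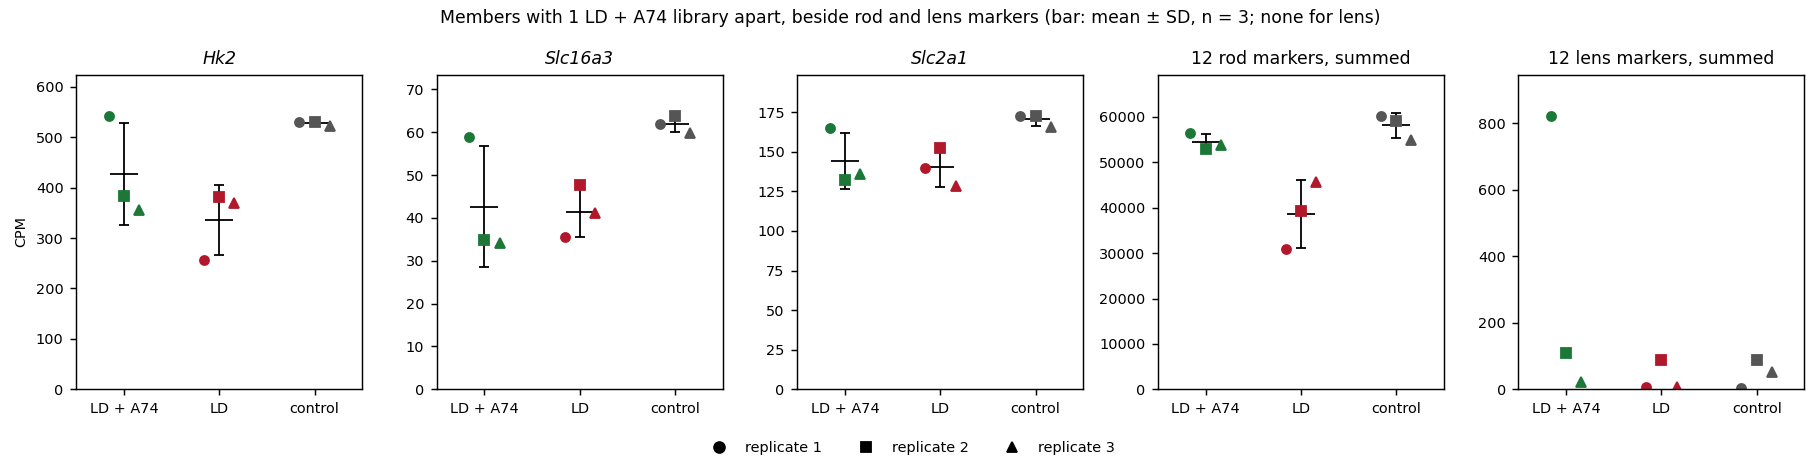
CPM (y axes, from 0) of Hk2, Slc16a3 and Slc2a1 and the summed CPM of 12 rod and 12 lens markers in each library of light damage with A74 (LD + A74), light damage (LD) and control; bars are the mean ± SD of 3, not drawn for lens. A74 replicate 1 (circle) has 543 CPM of Hk2 and 58.9 CPM of Slc16a3, above A74 replicates 2 and 3, and 824 CPM of lens markers.

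Without A74 replicate 1 the A74 against control difference was called for Slc16a3 (log2 fold change -0.85, edgeR adjusted p = 0.000758) and Slc2a1 (log2 fold change -0.35, edgeR adjusted p = 0.0266) but not for Hk2 (log2 fold change -0.51, edgeR adjusted p = 0.137). Because all 3 groups share 1 estimate of spread, leaving out this library also made light damage against control a call for Hk2 (edgeR adjusted p = 0.00896) and Slc16a3 (edgeR adjusted p = 0.000348), with the same log2 fold changes as before. The count of members lower after light damage was then 11.

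Other genes around the pathway were read from lists of related enzymes and regulators, beside all rows tested, of which 13.0% rose and 12.8% fell after light damage and 9.07% rose and 9.19% fell with A74 against light damage. Of 15 tested regulators of glycolysis and rod-derived cone viability factors, 7 fell (46.7%) and 2 rose (13.3%) after light damage. Nxnl1, which encodes a factor by which rods sustain glucose uptake of cones through basigin, had 274, 289 and 293 CPM with A74, 183, 221 and 238 CPM after light damage and 323, 330.0 and 307 CPM in control (log2 fold change of light damage against control -0.58, SE 0.08, edgeR adjusted p = 0.000107). Its relative Nxnl2 fell by 0.47 and Tigar, whose product lowers the bisphosphate that PFKFB enzymes make, by 0.54. With A74 against light damage all 3 rose, by 0.42 for Nxnl1, 0.33 for Nxnl2 and 0.34 for Tigar (edgeR adjusted p = 0.00225, 0.00649 and 0.00743). Myc, a growth-related transcription factor gene, at 22 to 48 counts after light damage and 9 to 17 in control, rose by 1.24 (edgeR adjusted p = 0.0119).

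Of 11 tested further glycolytic isozymes 2 rose after light damage (18.2%), near the 13.0% of all rows, and 0 fell. Hk3, a hexokinase gene of myeloid cells, had 73, 48 and 23 counts after light damage, against 9, 6 and 8 in control, and rose by 2.45 (SE 0.41, edgeR adjusted p = 0.000452). It had 7, 7 and 6 counts with A74, a log2 fold change of -2.71 against light damage (edgeR adjusted p = 0.000502). The hexokinase-like gene Hkdc1 rose by 0.81 and was lower by the same measure with A74, at -0.86 (edgeR adjusted p = 0.000623 and 0.000808). Galm, the aldose epimerase gene, was the third of the list that was lower with A74, at -0.59 (edgeR adjusted p = 0.0225).

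Of 10 pentose phosphate genes 3 rose after light damage, beside 13.0% of all rows, and 2 fell with A74 against light damage, beside 9.19%, with the transketolase gene Tkt at 0.31 and -0.22 (edgeR adjusted p = 0.00508 and 0.0442). Rpia, the ribose phosphate isomerase gene, was the one gene of all these lists called with A74 against control, at 0.54 (edgeR adjusted p = 0.0259). Of 16 tested genes of glycogen and gluconeogenesis 4 rose and 1 fell after light damage, beside 13.0% and 12.8% of all rows, and 2 fell with A74 (12.5%), beside 9.19%. Gbe1, the glycogen branching enzyme gene, had 61.6, 62.5 and 60.5 CPM with A74, 101, 85.9 and 87.4 CPM after light damage and 68.0, 69.9 and 63.9 CPM in control. It was called in both comparisons, at 0.44 after light damage and -0.57 with A74 (edgeR adjusted p = 0.00026 and 9.37e-05). The glycogen phosphorylase gene Pygl was called likewise, at 0.69 and -0.57.

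Of 23 further genes of pyruvate dehydrogenase and the citric acid cycle 4 rose after light damage (17.4%) and 2 fell with A74 (8.70%), shares near the 13.0% and 9.19% of all rows. The malate dehydrogenase gene Mdh1 had the smallest p among the 4 (log2 fold change 0.22, edgeR adjusted p = 0.00953). Of 8 genes of the glycerol phosphate and malate-aspartate shuttles 4 rose after light damage, beside 13.0% of all rows, among them Gpd1 by 1.09 at 39 to 106 counts in light damage and 29 to 31 in control, and only Gpd1 fell with A74, by 1.04 (edgeR adjusted p = 0.0209). Of 16 tested further hexose and monocarboxylate carriers 1 rose and 1 fell after light damage (6.25% each), and 2 fell with A74 (12.5%), beside 13.0%, 12.8% and 9.19% of all rows. Slc16a4 fell by 0.35 after light damage (edgeR adjusted p = 0.0185), and Slc16a9 fell by 0.94 with A74 against light damage (edgeR adjusted p = 0.0388). The lists' median log2 fold changes after light damage ran from -0.16 for regulators to 0.15 for pentose phosphate genes, against 0.01 over all rows.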

How the data were processed

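RNA sequencing of retina was deposited as 1 table of counts for 55414 genes in 9 libraries. The authors deposited raw counts, to go by the values, which are whole and add up to a different total in each library. Per the submitters' processing notes, the tools and build included RSEM 1.3.1, Bowtie2, DESeq2 1.4.5 and GRCm39, whose roles the notes leave unstated. Strand use and annotation release were not found in the labels, so near-identical and overlapping genes are uncertain. Groups and replicate numbers come from the sample titles.

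The filterByExpr function of edgeR, at a minimum count of 10, left 17272 rows, which were scaled by TMM and tested in edgeR 4.0.16 (R 4.3.3) with the robust quasi-likelihood test in 1 fit of all libraries, with Benjamini-Hochberg adjustment over all rows and calls at adjusted p under 0.05. SE is the log2 fold change over the square root of F, and nominal 95% intervals span 1.96 SE. With so few libraries this multiplier gives intervals narrower than the test implies. That of Pfkfb2 with A74 against control was -0.48 to -0.02, at an unadjusted edgeR p of 0.0565. The fit was tried on simulated data with log2 fold changes of 1 in either direction, above that of any member, which tells nothing of smaller changes. Log2 CPM used a prior count of 2. The members, the gene lists and the tests were chosen with earlier results of these data known. Named genes are all members, and up to 4 called genes per further list. Some genes of these lists are not reported here by name. DESeq2 1.42.0, other scaling, no filter, pairwise fits, a replicate block and leaving out each library were tried as well. Terms for Y-linked counts and anterior tissue, and summed copies, were added after the data were seen. No 2 libraries of a group had identical counts, and the chi-square per degree of freedom between them was 2.49 or more. Promoters are from RefSeq (GRCm38.p6), and no other coordinates were used. Deviations from group means of same-numbered light damage and control libraries had correlations of 0.116, 0.246 and 0.311 in the 3 pairs. Control replicate 2 with light damage replicate 1 gave 0.127, above the lowest of these. In 12 of 18 cases of a library set against another group, the highest correlation was with the library of the same number. These numbers are those of the titles, and the library names of the light damage and A74 groups carry other numbers. Whether libraries were paired is therefore not settled. Same-numbered pairs with the A74 group had correlations down to -0.09, and the labels state no pairing. The main fit had no replicate term, and the replicate block was an alternative.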

Additional observations from a re-analysis of the deposited data

How the results depend on the processing

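Of 377 refits of the 21 calls, 312 kept the call, 65 lost it and 0 reversed. In none of the 21 did the libraries of the groups compared overlap, so leaving out libraries could hardly reverse a call. Leaving out 1 library moved the members called after light damage against control to between 3 and 7 higher and 3 and 11 lower, those with A74 against light damage to between 1 and 4 higher and 0 and 5 lower, and those with A74 against control to between 0 and 1 higher and 0 and 2 lower. Over all genes it moved the 3 counts of calls to between 2842 and 5395, 1731 and 4448, and 21 and 426. For A74 against light damage, no count filter gave 4 members higher, Y-linked counts as a term gave 1 higher, 0 lower and 745 genes in all, and only those control and light damage libraries with Y-linked counts gave 4 higher and 4745 genes. For A74 against control, no filter gave 1 member higher, 2 lower and 718 genes, DESeq2 gave 1 higher and 322 genes, and the 2 groups alone gave 2 higher, 1 lower and 551 genes. In that comparison Y-linked counts as a term gave 1 higher and 96 genes, and anterior tissue as a term 1 higher. Only those control and light damage libraries with Y-linked counts gave 1 lower and 500 genes. In both A74 comparisons this last fit kept all A74 libraries, none of which had Y-linked counts. A74 and Y-linked counts could therefore not be told apart in it. The cause of these moves was not tested.

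With the replicate block, 7 members were called higher and 8 lower after light damage against control, and 2 higher and 4 lower with A74 against light damage, and the block changed no call of a member in any of the 3 comparisons. It gave 4588, 3362 and 136 calls over all genes. Size factors in place of TMM moved the median of all genes by -0.0042 log2 units for light damage against control, 0.0025 for A74 against light damage and -0.0017 for A74 against control. Rows with under about 100 counts in a library, Pgam2, Pfkfb1, Slc16a8 and Pdk4, allow no finer statement, and intervals cover these libraries only.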
